A study of Mus musculus with 12 samples.

Results

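The amino acid transporters of the solute carrier (SLC) families were examined in kidney cortex of TRACK mice. The set held 40 of the 37681 genes in the count table, found by matching their symbols to the Ensembl identifiers: 4 genes of family SLC1, 2 of SLC3, 7 of SLC6, 12 of SLC7, 1 of SLC16, 3 of SLC36, 8 of SLC38 and 3 of SLC43. TRACK (TG+) mice carry the γ-HIF1αM3 transgene, a constitutively active mutant of hypoxia-inducible factor 1α driven by a γ-glutamyl transpeptidase promoter in the proximal tubule, and are used as a model of clear cell renal cell carcinoma. The controls (TG-) were transgene-negative littermates. All 6 animals, 3 TG+ (43-29, 43-49 and 43-75) and 3 TG- (43-26, 43-50 and 43-76), were untreated C57BL/6 males aged 18 months. A thin outer slice of cortex from each of the 2 kidneys was sequenced as its own library, which gave 12 libraries of 21888584 to 33704850 counted reads, and both kidneys of a mouse were summed so that the mouse was the replicate.

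The proximal tubule recovers nearly all filtered amino acids. Apical carriers in the brush border take them from the tubular fluid, many of them driven by sodium, and basolateral exchangers and uniporters release them to the blood. Several SLC7 proteins are light chains that reach the membrane only with an SLC3 heavy chain: rBAT (Slc3a1) at the apical side and 4F2hc (Slc3a2, CD98) at the basolateral side. Other members load amino acids into most cell types, or move them across the lysosomal membrane. By these roles 9 members were counted as apical, 8 as basolateral, 4 as lysosomal and 19 as broad or not assigned. The last group, called broad below, also holds members with no assigned role. Roles were assigned with earlier results of these data known, and no other assignment was tried.

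In TG+ cortex, 6 of 9 apical carriers of the brush border were lower and the other apical members had no call, while 9 of 19 members counted as broad or not assigned were higher and the rest of these had no call. Of 39 members tested, 11 rose and 10 fell at an adjusted p below 0.05, and 18 had no call (edgeR quasi-likelihood test on counts, Benjamini-Hochberg adjustment over all 19399 genes tested). The 11 that rose were 28.2% of the members, where 15.4% of all genes tested rose, and the 10 that fell were 25.6%, where 10.9% of all genes fell. Without 43-29 or without 43-50, 6 members fell. With scaling by library size alone, which moved the median of all genes from 0.01 to 0.13 on the log2 scale, the split was 15 higher and 4 lower (Slc7a13, Slc7a9, Slc6a20b and Slc36a1). Past the study's own threshold, a fold change above 2 or below 0.5 with an adjusted p below 0.01, 6 members were higher, all of them among the members of families SLC7 and SLC38, and 0 were lower. Leaving out 1 mouse took the 6 to between 3 (without 43-76) and 5, and Slc7a3 was not among them whichever mouse was left out. Of all genes tested, 3.77% passed that threshold upward and 0.211% downward. DESeq2 also placed 0 members past it downward, and so did an unadjusted p below 0.01 with the same fold. The 3 TG+ mice did not overlap the 3 TG- mice for 27 of 39 members, or 69.2%, against 44.2% of all genes.

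By role, 6 of the 9 apical members fell and 0 rose, with a median log2 fold change of -0.35. With library size alone 3 of the 9 fell, and 2 of the 6 (Slc7a13 and Slc7a9) shared no more than 10% of their sequence with another gene. No apical member was higher at an unadjusted p below 0.05 (0 of 9) or with DESeq2 (0 of 9). Of the 7 basolateral members tested, 1 rose and 2 fell, with a median of -0.20. Of the 4 lysosomal members, 1 rose and 2 fell, with a median of -0.31. Of the 19 members counted as broad or not assigned, 9 rose and 0 fell, with a median of 0.47. Of these 19, 1 was lower at an unadjusted p below 0.05 and 0 with DESeq2. The median over all 39 was -0.09, beside 0.01 for all genes tested, and lay at 0.0066 without mouse 43-75.

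**Figure D1:**
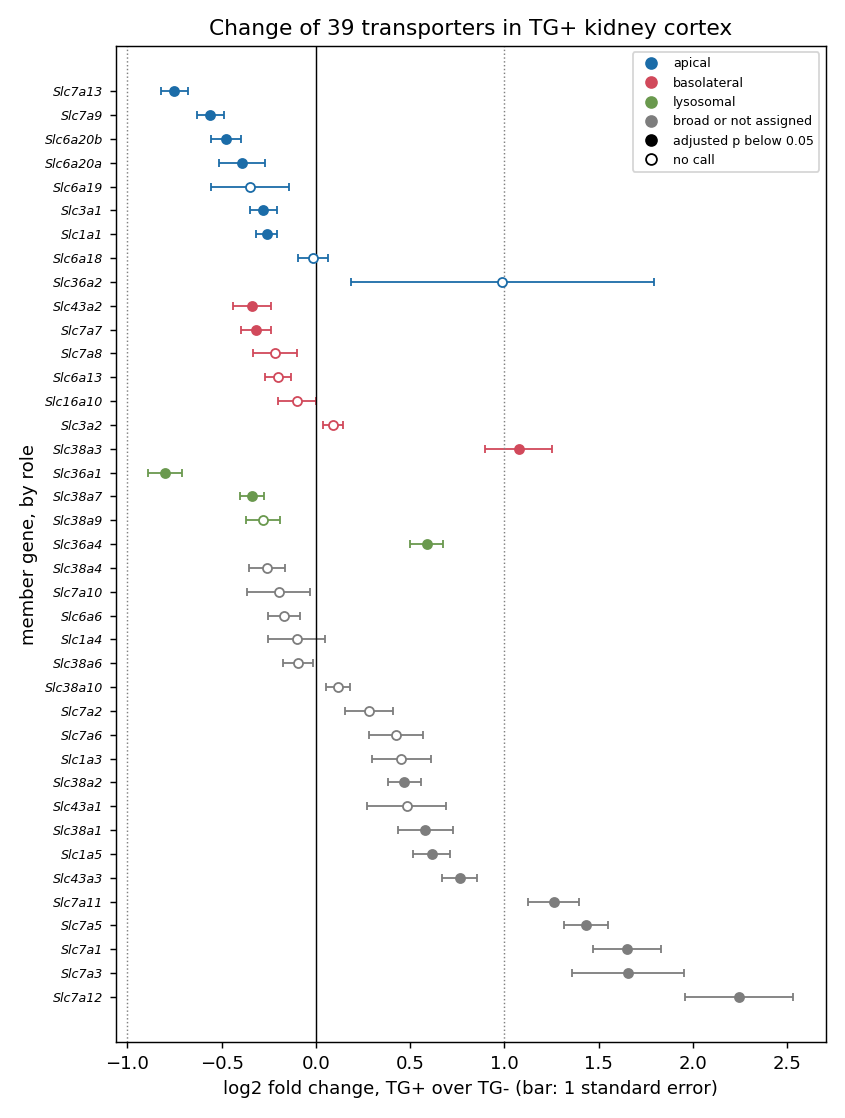
Log2 fold change of each of the 39 members tested, TG+ over TG-, ordered by role, with bars of 1 standard error. Filled points passed an adjusted p of 0.05, open points did not, and dotted lines mark a doubling and a halving. The filled apical points, 6 in all, lie left of 0 and the filled broad points, 9 in all, lie right of it.

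Markers of the cells in the slice moved together with these groups. Of 20 proximal tubule genes, 9 fell and 1 rose, with a median log2 fold change of -0.26, and their summed level was 39070 to 41790 CPM (read counts scaled to library size) in TG+ and 48130 to 50830 CPM in TG-. Markers of immune cells were higher for 9 of 12 genes (summed 479 to 719 CPM in TG+, 160 to 199 CPM in TG-), of endothelium for 7 of 7 (552 to 594 and 321 to 422 CPM) and of stroma for 6 of 8 (289 to 376 and 189 to 229 CPM). Markers of other nephron segments were higher for 1 of 12 (4117 to 5506 and 4342 to 4478 CPM), and tubule injury genes were higher for 5 of 8 (663 to 795 and 550 to 688 CPM). The single gene Jchain made up most of the immune sum in TG+ (mean 449 CPM, and 77.4 CPM in TG-). Spp1, which had no call, made up most of the injury sum (mean 650 CPM in TG+ and 597 CPM in TG-). In tissue RNA, fewer cells of a type and less RNA per cell cannot be told apart, and the part of cell makeup in the changes of the transporters was not tested. Transcripts of Hif1a did not differ by the test (91.7, 109 and 86.3 CPM in TG+; 107, 103 and 103 CPM in TG-; adjusted p = 0.343), while 9 of 9 hypoxia target genes rose. The hypoxia list includes genes that the paper reports as raised in these mice, so the outcome for those was known beforehand. Ggt1, the mouse gene of the transpeptidase whose promoter drives the transgene, had 1145, 1076 and 1107 CPM in TG+ and 1198, 1367 and 1206 CPM in TG- (log2 fold change -0.18 ± 0.07, adjusted p = 0.0856). Throughout, errors of fold changes are standard errors over the 3 mice in each group, and CPM is scaled by TMM factors and serves for one gene across mice.

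Levels of different genes were compared per length, as the deposited RPKM (read counts scaled by gene length and by each library's upper quartile of gene counts). In TG- cortex the highest were Slc7a13 at 513 ± 35.1 RPKM (SD, n = 3) and Slc3a1 at 325 ± 26.1 RPKM, a light chain and its heavy chain. Next came the taurine carrier gene Slc6a6 at 85.6 ± 9.49 RPKM and Slc7a8 at 78.4 ± 2.77 RPKM, a difference smaller than the SD of Slc6a6. Slc7a7 (50.3 ± 4.25 RPKM), Slc3a2 (43.7 ± 0.692), Slc6a18 (41.6 ± 4.09) and Slc1a1 (38.3 ± 1.77) followed, and Slc6a19 was ninth at 32.9 ± 4.57 RPKM. These orderings depend on the gene length the authors divided by: by CPM per kilobase of annotated exons, 9 of the first 10 were shared, and Slc6a18 and Slc6a19 came at ranks 3 and 4. Summed over the apical members, the level was 680 ± 16.3 RPKM in TG+ and 989 ± 59.9 RPKM in TG- mice (SD, n = 3), and Slc7a13 and Slc3a1 made up most of both. The basolateral sum was 187 ± 17.7 RPKM in TG+ and 212 ± 0.480 RPKM in TG-, where 43-75 (207 RPKM) lay near the controls. The broad sum overlapped, with 137 ± 9.24 RPKM in TG+ and 132 ± 9.59 RPKM in TG-.

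**Figure D2:**
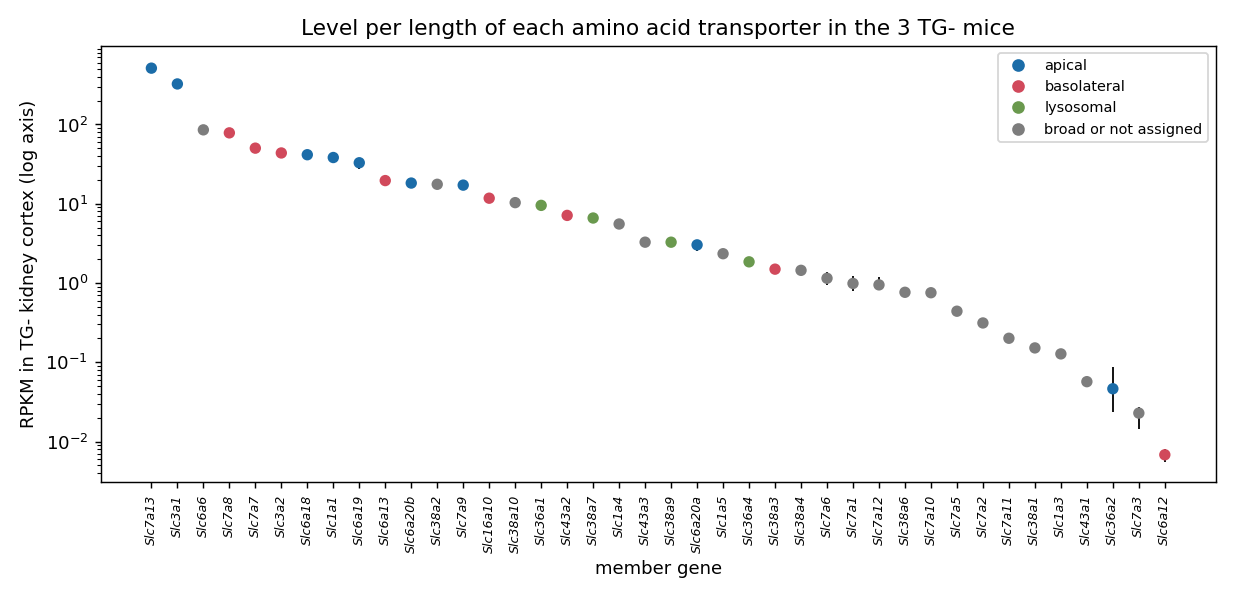
RPKM of each member in the 3 TG- mice on a log axis, in descending order and coloured by role; points are means and lines run from the lowest to the highest mouse. Slc7a13 (513 RPKM) and Slc3a1 (325 RPKM) stand above the rest, and Slc6a12 is last.

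Of the apical members, the rBAT system fell in all 3 of its genes. Slc7a13 encodes AGT1, a carrier of cystine, aspartate and glutamate and a light chain of rBAT, from a gene at chr4:19818725-19842218. Its level was 655, 673 and 611 CPM in TG+ and 1018, 1169 and 1077 CPM in TG-. Every TG+ mouse lay below every TG- mouse, and the log2 fold change was -0.75 ± 0.07 (adjusted p = 3.34e-04). Slc7a9 encodes b0,+AT, the exchanger of cystine and dibasic amino acids whose loss causes cystinuria. Levels were 98.1, 90.2 and 107 CPM in TG+ and 139, 150 and 147 CPM in TG- (-0.56 ± 0.07, adjusted p = 0.00150), again with no overlap. The heavy chain gene Slc3a1, also mutated in cystinuria, had 612, 637 and 585 CPM in TG+ and 694, 810 and 719 CPM in TG- (-0.28 ± 0.07, adjusted p = 0.0259). Slc3a1 shares 24.8% of its 51-base stretches, the read length, with the overlapping gene Prepl, which itself fell by 0.27 on the log2 scale, and its call was lost without 43-29, 43-50, 43-75 or 43-76 (adjusted p 0.0562 to 0.0792). Of the summed RPKM of both light chain genes, Slc7a13 held 96.3 ± 0.470% in TG+ and 96.8 ± 0.107% in TG- mice (SD, n = 3).

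Among the other brush border genes, the imino acid carrier genes fell and the neutral amino acid carriers B0AT1 and B0AT3 had no call. Slc6a20b had 169, 189 and 180 CPM in TG+ and 228, 274 and 247 CPM in TG- (-0.48 ± 0.08, adjusted p = 0.00463). The other mouse copy, Slc6a20a, was lower by the test with overlapping mice (10.9, 12.8 and 11.3 CPM; 12.7, 16.8 and 16.5 CPM; -0.39 ± 0.12, adjusted p = 0.0494), a call that was lost without 43-29, 43-50, 43-75 or 43-76 (adjusted p 0.117 to 0.149). The pair share sequence with each other (15.1% of the 51-base stretches of Slc6a20a) and Slc6a20b with Sacm1l (20.1%; Sacm1l itself -0.07, adjusted p = 0.434), so reads could be split between them. Slc1a1, the glutamate and cystine carrier EAAT3, had 344, 342 and 353 CPM in TG+ and 403, 438 and 404 CPM in TG- (-0.26 ± 0.06, adjusted p = 0.0120). It shares 30.9% of its stretches with 4430402I18Rik on the opposite strand (-0.29), and no strand setting of the counting was stated.

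Slc6a19 encodes B0AT1, the neutral amino acid carrier mutated in Hartnup disorder. Its levels were 455, 284 and 515 CPM in TG+ and 553, 450 and 594 CPM in TG-. The groups overlapped, since 43-29 and 43-75 reached the TG- range and 43-49 lay far below it, and the fold change of -0.35 ± 0.21 was not called (adjusted p = 0.251). The deposited table is named for 3 pairs of mice, and within each the TG+ mouse was the lower (43-29 against 43-26, 43-49 against 43-50 and 43-75 against 43-76). With those pairs as a block the gene was called (-0.38, adjusted p = 0.0271). Both kidneys of 43-49 were low, at 260 and 313 CPM. Slc6a18, the glycine carrier B0AT3, was 491 to 537 CPM in TG+ and 470 to 574 CPM in TG- (-0.02 ± 0.08, adjusted p = 0.907), a value whose sign turned with library-size scaling. The membrane partner of both carriers, collectrin (Cltrn), fell (1297, 1112 and 1269 CPM; 1678, 1652 and 1487 CPM; -0.39 ± 0.08, adjusted p = 0.00991). Slc36a2, the proton-coupled glycine and proline carrier, was near the detection limit at 0.0809 to 0.635 CPM in TG+ and 0.0585 to 0.333 CPM in TG- (adjusted p = 0.408).

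Of the 7 basolateral members tested, the glutamine carrier gene Slc38a3 rose, Slc7a7 and Slc43a2 fell, and the other 4 had no call. Slc38a3 encodes SNAT3, which takes up glutamine from blood for ammonia formation. Its levels were 14.1, 22.6 and 16.9 CPM in TG+ and 9.77, 7.72 and 7.98 CPM in TG-. The groups did not overlap and the log2 fold change was 1.08 ± 0.18 (adjusted p = 0.00426). Without any 1 mouse the value was 0.86 to 1.21, with adjusted p up to 0.0227. One kidney of 43-26 had 12.6 CPM and the other 6.81 CPM, against 12.8 CPM in the lowest TG+ kidney.

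The heavy chain gene Slc3a2 had 240, 245 and 258 CPM in TG+ and 237, 230 and 230 CPM in TG- (0.09 ± 0.05, adjusted p = 0.238). Slc7a8, whose product LAT2 exchanges neutral amino acids, had 246, 234 and 324 CPM in TG+ and 325, 306 and 306 CPM in TG-. Its groups overlapped through 43-75 alone (-0.22 ± 0.12, adjusted p = 0.210), and without that mouse the value was -0.39 (adjusted p = 0.0119). Slc7a7, the y+LAT1 exchanger mutated in lysinuric protein intolerance, fell from 189, 213 and 223 CPM to 167, 155 and 179 CPM (-0.32 ± 0.08, adjusted p = 0.0247). Without 43-29, 43-49, 43-50 or 43-76 its adjusted p was 0.0562 to 0.0889. Slc43a2, the LAT4 uniporter of branched-chain amino acids, fell from 150, 170 and 165 CPM to 110, 133 and 141 CPM (-0.34 ± 0.10, adjusted p = 0.0385), and without any of those same mice its adjusted p was 0.0569 to 0.110. Slc6a13, a GABA and betaine carrier, and Slc16a10, the aromatic amino acid uniporter TAT1, had values of -0.20 and -0.10 with adjusted p of 0.0665 and 0.501. Slc6a13 was called lower with DESeq2 (adjusted p = 0.0385) and without 43-76 (0.0274). Slc6a12, the betaine carrier BGT1, had 1 to 3 reads in any mouse and was not tested.

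Of the members counted as broad or not assigned, the 5 past the study's threshold all belong to SLC7. Each started from a low level in TG- cortex, 0.0229 to 0.988 RPKM. Slc7a1, Slc7a5 and Slc7a11 passed the threshold whichever mouse was left out. All 5 are protein-coding genes at separate places in GRCm38: Slc7a12 at chr3:14480697-14505830, Slc7a11 at chr3:49892526-50443614, Slc7a1 at chr5:148327410-148399904, Slc7a5 at chr8:121881150-121907694 and Slc7a3 at chrX:101079210-101086020. Slc7a12, the light chain Asc-2, had 14.2, 24.6 and 11.97 CPM in TG+ and 4.46, 3.15 and 3.11 CPM in TG-. Every TG+ mouse exceeded every TG- mouse by more than 2-fold (2.25 ± 0.29, adjusted p = 0.00146), and the TG+ mice also spread most, with 32.8 CPM in one kidney of 43-49 and 15.6 CPM in the other. Cationic amino acid carriers came next. Slc7a1 (CAT1, arginine and lysine uptake) had 27.2, 35.2 and 25.8 CPM in TG+ and 11.7, 7.44 and 9.01 CPM in TG-. The lowest TG+ level was more than 2 times the highest TG- level (1.65 ± 0.18, adjusted p = 6.97e-04). Slc7a3 (CAT3) was far lower, at 0.728, 0.688 and 0.657 CPM in TG+ and 0.273, 0.123 and 0.266 CPM in TG- (1.66 ± 0.30, adjusted p = 0.00634). Slc7a2 (CAT2) had no call, with 7.36 to 9.49 CPM in TG+ and 6.55 to 7.98 CPM in TG- (0.28 ± 0.13, adjusted p = 0.142, and 0.0488 without 43-29).

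Both SLC7 light chains of 4F2hc that are widely induced in growing cells rose. Slc7a5 encodes LAT1, an exchanger of large neutral amino acids. It had 8.19, 8.82 and 7.35 CPM in TG+ and 3.35, 2.75 and 2.93 CPM in TG- (1.43 ± 0.12, adjusted p = 2.00e-04). Slc7a11 encodes xCT, which imports cystine in exchange for glutamate and feeds glutathione synthesis. It had 5.96, 5.98 and 5.52 CPM in TG+ and 2.87, 2.26 and 2.15 CPM in TG- (1.26 ± 0.14, adjusted p = 6.47e-04). Within each group these values were close together, and neither gene overlapped between groups. Even so, Slc7a5 and Slc7a11 made up 1.51 ± 0.294% of the summed RPKM of the 4F2hc light chain genes in TG+ and 0.490 ± 0.0622% in TG- (SD, n = 3), while Slc7a8 held 60.1 ± 2.83% and 59.8 ± 2.66%. The other light chain of broad distribution, Slc7a6 (y+LAT2), had 5.50 to 5.70 CPM in TG+ and 3.45 to 5.05 CPM in TG- (0.43 ± 0.14, adjusted p = 0.0633, and 0.0193 without 43-26).

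**Figure D3:**
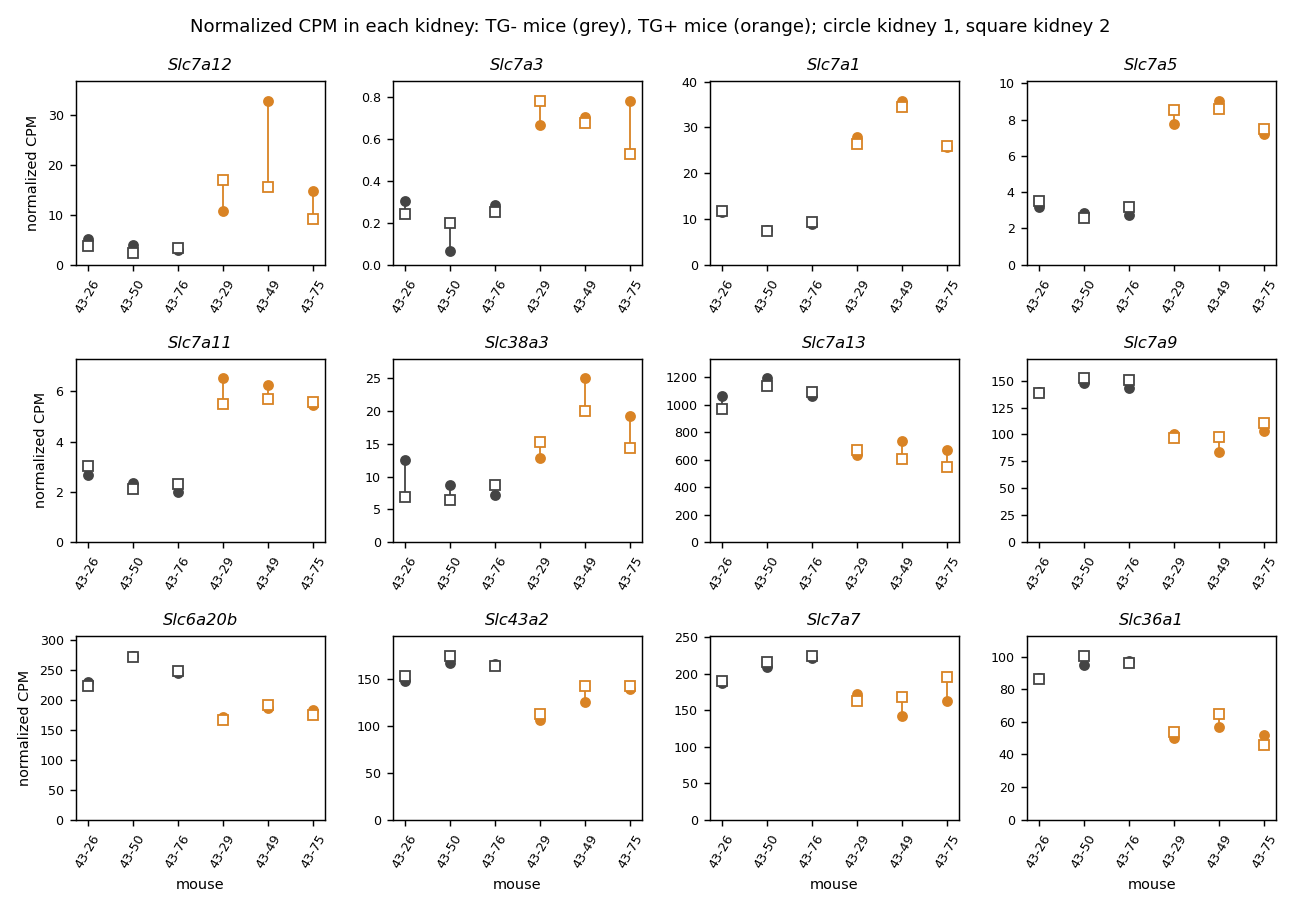
Normalized CPM in each kidney (circle kidney 1, square kidney 2, joined by a line) of the 3 TG- mice (grey) and the 3 TG+ mice (orange), on linear axes from 0, for the 6 members past the study's threshold and 6 members that fell. Slc7a12 spreads from 9.06 to 32.8 CPM among TG+ kidneys, while the kidneys of a mouse lie close together for Slc7a1, Slc7a5 and Slc7a11.

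Slc1a5, Slc38a1, Slc38a2 and Slc43a3 rose by smaller amounts. Slc1a5 (ASCT2, an exchanger of glutamine and other neutral amino acids) had 44.8, 57.3 and 48.3 CPM in TG+ and 35.3, 32.0 and 31.1 CPM in TG- (0.61 ± 0.10, adjusted p = 0.00374). The system A carriers Slc38a1 (SNAT1; 4.29 to 5.91 CPM against 3.14 to 3.46 CPM; 0.58 ± 0.15, adjusted p = 0.0235) and Slc38a2 (SNAT2, a gene raised when amino acids run short; 100 to 123 CPM against 73.8 to 86.1 CPM; 0.47 ± 0.09, adjusted p = 0.00791) also rose. For Slc38a1 the adjusted p was 0.0580 to 0.0699 without 43-26, 43-50 or 43-76. Slc43a3, which belongs to the SLC43 family by sequence and carries purine bases, had 39.99, 41.8 and 36.1 CPM in TG+ and 25.1, 20.4 and 24.1 CPM in TG- (0.76 ± 0.09, adjusted p = 0.00121). The 8 further broad members without a call, Slc1a3, Slc1a4, Slc6a6, Slc7a10, Slc38a4, Slc38a6, Slc38a10 and Slc43a1, lay between -0.26 and 0.48 on the log2 scale, and of these Slc43a1 was called higher without 43-29 (adjusted p = 0.0490). Slc38a6 shares 35.3% of its stretches with Noct and Slc7a10 shares 12.8% with Lrp3.

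The lysosomal members went both ways. Slc36a1 encodes PAT1, a proton-coupled exporter of small neutral amino acids, and had 51.9, 60.5 and 48.7 CPM in TG+ and 86.6, 97.5 and 96.7 CPM in TG-. It had the most negative fold change of the 39 members (-0.80 ± 0.09, adjusted p = 8.00e-04), though within 1 standard error of Slc7a13 (-0.75 ± 0.07). The groups did not overlap for Slc36a1. Its relative Slc36a4 (PAT4) rose, with 19.3, 21.4 and 19.5 CPM in TG+ and 14.8, 12.7 and 12.5 CPM in TG- (0.59 ± 0.09, adjusted p = 0.00283). Slc38a7, a route of glutamine out of lysosomes, fell (24.0, 24.7 and 22.5 CPM; 28.8, 29.6 and 31.7 CPM; -0.34 ± 0.06, adjusted p = 0.00764). Slc38a9, the lysosomal arginine sensor of mTORC1, was -0.28 ± 0.09 with an adjusted p of 0.0537. It was called lower with DESeq2 (adjusted p = 0.0456), with upper-quartile scaling (0.0467) and without 43-49 (0.0276).

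Members with high levels in normal cortex were mostly lower or had no call in TG+, and most of those that rose had low levels. Of the 15 members with at least 10 RPKM in TG-, a limit chosen after the values were seen, 1 rose (Slc38a2) and 6 fell. Of the 24 tested members below it, 10 rose and 4 fell. This is a description of the members, and the same mice enter both the level and the change.

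**Figure D4:**
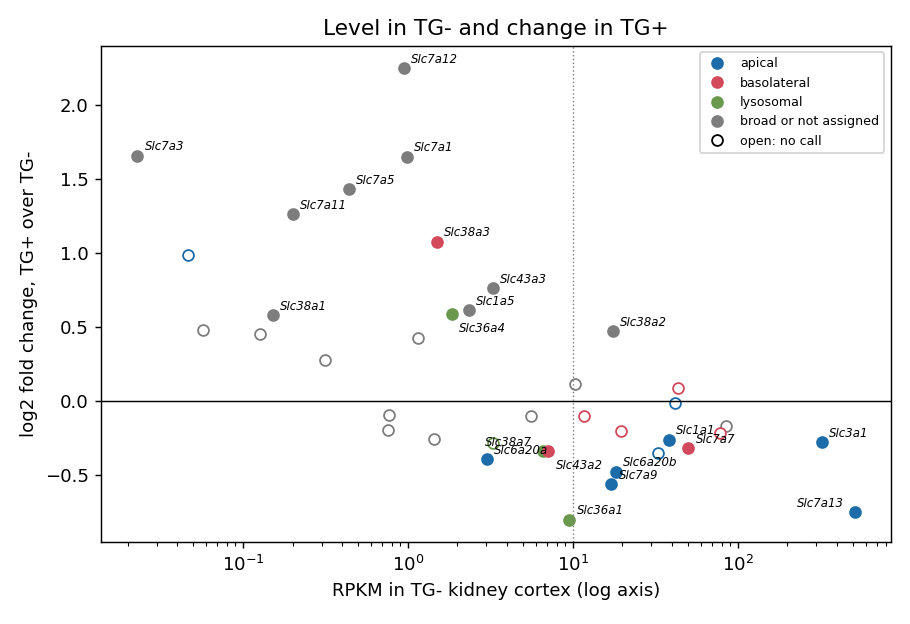
Mean RPKM in TG- mice (log axis) against log2 fold change in TG+ for the 39 members tested, coloured by role, with open points for no call and a dotted line at 10 RPKM. Above the line 1 called member, Slc38a2, lies above 0 and 6 lie below it.

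Promoter sequences around RefSeq start sites (GRCm38.p6, 250 bases before to 50 after) were at hand for 28 of the 40 members, in 44 windows. The core of the hypoxia response element bound by HIF (ACGTG or GCGTG, either strand, where a palindrome matches on both) was found for 19 of 28 members, or 67.9%, and for 46.7% of all genes in that table. By window the shares were 50.0% of the members' and 43.8% of all. It was present for 3 of 4 members that rose, 7 of 9 that fell and 9 of 14 without a call. Only these 4 of the 11 members that rose had a window. Slc7a12, Slc7a3, Slc7a5 and Slc38a3, all past the study's threshold, had none. The C/EBP-ATF response element bound by ATF4 (TGATGNAA, either strand) was found for 3 members, Slc7a11, Slc7a7 and Slc1a4, or 10.7%, and for 4.51% of all genes. These matches describe letters in the windows and do not show binding. The 100 bases before the start are given for the member that rose with a paired ATF4 motif and for the lysosomal relatives that moved in opposite directions, with ATF4 motifs in capitals for Slc7a11 and hypoxia cores in capitals for the other two.
Slc7a11 (chr3:50443614-50443713, minus strand): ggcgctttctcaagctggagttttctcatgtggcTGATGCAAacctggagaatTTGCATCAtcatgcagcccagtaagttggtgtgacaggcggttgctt
Slc36a4 (chr9:15709638-15709737, plus strand): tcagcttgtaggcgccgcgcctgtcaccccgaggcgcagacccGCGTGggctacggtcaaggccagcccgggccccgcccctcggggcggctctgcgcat
Slc36a1 (chr11:55204240-55204339, plus strand): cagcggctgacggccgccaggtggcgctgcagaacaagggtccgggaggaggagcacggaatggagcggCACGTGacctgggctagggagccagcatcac
In Slc7a11 the motifs began 66 and 47 bases before the start, on opposite strands. Slc36a4, which rose, had its core in this stretch 57 bases before the start, and Slc36a1, which fell, had a palindromic one 31 bases before it. Cores that lie outside the stretches or run across their ends are not in capitals: a second palindrome of Slc36a1 begins in its last bases and crosses the start, and both genes had a further core upstream.

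Genes of the amino acid stress response, among which ATF4 targets are counted, were examined beside the carriers. Of 12 such genes, 9 rose and 1 fell, and 7 passed the study's threshold. Aldh1l2, a mitochondrial folate enzyme, had 159, 159 and 154 CPM in TG+ and 4.48, 4.97 and 4.59 CPM in TG- (5.07 ± 0.07, adjusted p = 2.97e-08). Trib3 (3.90), Chac1 (2.58), Asns, which encodes asparagine synthetase (2.52), Atf3 (2.18), Phgdh, the first enzyme of serine synthesis (1.72), and Ddit3 (1.18) were the others, as log2 fold changes.

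Other carriers and handling enzymes around the set were counted the same way. Of 16 further genes of the same families, 9 were tested, 2 rose and 1 fell (Slc7a4, -0.53, adjusted p = 0.00486). Slc7a15, a relative of the apical light chains, had 143, 125 and 131 reads in the TG+ mice and 1, 5 and 3 in the TG- mice, a ratio of 44.6 after scaling, with an exact 95% interval of 23.2 to 98.2 that covers counting error only. Slc6a7, a proline carrier known from brain, had 0.526 to 0.705 CPM in TG+ and 0.246 to 0.292 CPM in TG- (1.23 ± 0.23, adjusted p = 0.00741). Of 7 mitochondrial amino acid carriers tested, 4 fell and 0 rose, also 0 at an unadjusted p below 0.05 and with DESeq2; Slc25a29 (-0.71 ± 0.17) and Slc25a38 (-0.54 ± 0.06), carriers of basic amino acids and of glycine, changed most. Of 3 genes of lysosomal exit, Pqlc2 (-0.29) and Ctns, the cystine exporter (-0.27), fell. Of 9 brush border peptidases, 4 rose and 1 fell, and Xpnpep2 passed the threshold (20.2, 18.6 and 21.4 CPM; 5.71, 9.74 and 9.80 CPM; 1.25 ± 0.19, adjusted p = 0.00313). The 4 peptide carriers of family SLC15 had no call in either direction, by edgeR or DESeq2, with 1 higher and 1 lower at an unadjusted p below 0.05.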

How the data were processed

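Total RNA of kidney cortex slices was sequenced by the study as 51-base single-end reads after preparation with a TruSeq RNA kit. The deposited table holds, per library, read counts per Ensembl gene and RPKM values made by the authors from those counts, which match upper-quartile scaling rather than library totals; the submitters' notes name the mm9 build, the study's methods name the Tuxedo tools, and the counting settings, gene lengths and strand are not given in the sources used here. Symbols, positions and exon lengths came from GENCODE M21 (GRCm38) by Ensembl identifier. Counts of both kidneys were summed per mouse (48052131 to 60506785 reads per mouse). Genes were filtered with filterByExpr, scaled by TMM and tested with edgeR 4.0.16 in R 4.3.3 (glmQLFit and glmQLFTest, 3 against 3 mice, adjusted over all genes tested); standard errors are the fold change over the square root of F. P-values measure the spread between these mice. Alternatives were DESeq2 1.42.0, other scalings, centring on the median gene, no filter, single kidneys, a mouse left out and a replicate block. Members, roles and gene lists were chosen with earlier results of these data known. All 40 members are named; full statistics are given for those past the study's threshold and for the 3 apical, 3 basolateral and 3 other called members with the largest change, and shorter ones for the rest. Lists of amino acid handling name genes past that threshold or else the top 2 called. Marker and hypoxia lists are given by counts, and Jchain and Spp1 are named for their weight in a sum. Shared 51-base stretches were counted between M21 transcripts. Code was tested on simulated counts. Intervals cover counting error only. One gene of the other lists is not reported here.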

Additional observations from a re-analysis of the deposited data

Results flagged for a closer look

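Slc7a12 in TG+ kidneys held the one library that stood apart from its group by Dixon's gap criterion: kidney 1 of 43-49 had 32.8 CPM, where the other 5 TG+ kidneys had 9.06 to 17.0 CPM. Groups of 6 libraries were checked for every tested member in both genotypes, 78 in all. Chance gives about 1 in 20 for independent values, which the 2 kidneys of a mouse are not, so that rate is only a guide. Without 43-49 the log2 fold change of Slc7a12 was 1.87.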

How the results depend on the processing

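The 11 higher members became 17 with each kidney as its own library and 10 to 13 when 1 mouse was left out. The 10 lower members became 4 with library size alone, 5 at an adjusted p below 0.01, 6 without members that share over 10% of their 51-base stretches with another gene (a choice made after seeing the data), and 6 to 10 when 1 mouse was left out (6 without 43-29 and 6 without 43-50). They became 11 with upper-quartile scaling, 12 with DESeq2, and 13 both with each kidney as its own library and at an adjusted p below 0.1. The 4 that were lower with library size alone were Slc7a13, Slc7a9, Slc6a20b and Slc36a1. The 6 members past the study's threshold became 3 to 5 without 1 mouse, with 3 without 43-76 (Slc7a1, Slc7a5 and Slc7a11). The median over all members was 0.025 with library size alone and -0.12 to 0.0066 without 1 mouse (0.0066 without 43-75). Of the 21 called members, 14 kept their call in all 15 alternative settings, and 0 changed direction in any of them. Centring on the median gene, which was among these settings, left each adjusted p as it was and could not lose a call. Calls of Slc7a7, Slc38a1, Slc3a1, Slc6a20a and Slc43a2 were lost without at least 1 mouse, and those of Slc1a1 and Slc38a7 in another setting. Of members without a call, the sign turned with library size alone for Slc16a10 (0.021), Slc1a4 (0.020), Slc38a6 (0.025) and Slc6a18 (0.10), with kidney 1 alone for Slc6a18 (0.022), and without 1 mouse for Slc1a4 (-0.24 to 0.037), Slc36a2 (-0.028 to 2.18) and Slc6a18 (-0.087 to 0.057). With a replicate block on the 3 pairs of mice that the deposited table is named for, 12 members rose and 11 fell, and Slc6a19 (-0.38, adjusted p = 0.0271) and Slc7a6 (0.44, adjusted p = 0.0399) were called; mice so paired correlated at 0.307, 0.283 and -0.06, so, with no label saying what a pair shares, the pairs were not used in the reported test. The cause of these shifts was not tested. Slc7a3, Slc36a2 and Slc6a12 had the fewest reads, and small changes in them were not detectable at this depth.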
